A study of Mus musculus with 12 samples.

Results

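The 44 genes described here encode nucleolar factors of ribosome biogenesis, and were chosen as the rows of the gene count table with the symbols of a list: RNA polymerase I and its cofactors, the proteins of small nucleolar ribonucleoproteins (snoRNPs), processome and subunit assembly factors, and nucleolar chaperones. All 44 of the 44 symbols were among the 54351 genes of the table, and all 44 passed the filter on low counts that left 20897 genes for testing. The list was set by gene symbol and role and not by a cutoff on measured values, but it was chosen with earlier results of these data known. Ribosomes are made in the nucleolus, where RNA polymerase I transcribes the ribosomal RNA (rRNA) precursor, box C/D and box H/ACA snoRNPs guide its methylation and pseudouridylation, and assembly factors cleave and fold it together with ribosomal proteins into the small and large subunits. Growing and dividing lymphocytes make many ribosomes, and the transcription factor Myc is known to activate many genes of this pathway.

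Gene expression was measured by sequencing poly(A)-selected RNA of 12 mouse samples in 4 groups of 3. Overtly sick C57BL/6 mice with the LN3 transgene gave leukaemia cells (T-cell acute lymphoblastic leukaemia, T-ALL) of 2 organs, LN3 thymus and LN3 spleen. Tumour-free wild-type (WT) C57BL/6 mice gave thymocytes, and spleen cells enriched for CD8 T cells by negative selection. The labels name no treatment and no ages, and no source used here gives the promoter or the product of the transgene. LN3 cells and thymocytes were taken from mechanically dissociated organs without a stated sorting step, so that the LN3 samples can hold other cells of a sick organ. Whether each sample of a group is its own animal is not stated in the labels. The p-values therefore measure only the variation among these samples, and some of it may be technical.

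Libraries held between 12690000 and 42480000 estimated counts. Levels are given as CPM (counts scaled to a common library size) after scaling with TMM (trimmed mean of M values) factors. They are not divided by gene length, so they compare samples for a gene and not genes with each other. T-cell genes were present throughout, Cd3e at 422.6 to 937.4 CPM in LN3 libraries and at 243.9 to 733.2 CPM in WT libraries, and Cd8a was at 644.2 to 1034 CPM in WT CD8 cells. WT thymocyte library 3 stood apart. Its counts rose by 0.933 log2 units for each 10 points of gene GC content relative to the average library, the steepest slope of the 12. Next came LN3 spleen 1 with 0.412 and LN3 thymus 2 with 0.354. The slopes ran from −0.06 to 0.41 in LN3 spleen and from −0.34 to −0.21 in WT CD8 cells, without overlap. Rows annotated as rRNA took 0.442 to 10.5% of the counts of a library, 4.83 to 9.71% in LN3 spleen and 0.582 to 1.45% in WT CD8 cells.

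In the libraries as a whole, the 44 genes took 0.678 ± 0.121% of counts in LN3 thymus and 0.378 ± 0.0324% in WT thymocytes (SD, n = 3 each). They took 0.768 ± 0.177% in LN3 spleen and 0.457 ± 0.0418% in WT CD8 cells. The groups did not overlap within either organ: the lowest LN3 library had 0.564% in the thymus and 0.648% in the spleen, and the highest WT library 0.405% and 0.492%. The median spread of a gene within a group, as SD over mean, was 24.4% in LN3 thymus, 31.3% in LN3 spleen, 33.3% in WT thymocytes and 11.3% in WT CD8 cells. LN3 spleen had the highest mean of the 4 groups for 43 of the 44 genes, and WT thymocytes for the remaining gene, Wdr12. LN3 spleen 3 was the highest library of its group for 38 of the 44 genes. None of the 44 genes passed between LN3 spleen and LN3 thymus, as described below. The lowest mean was in WT thymocytes for 29 genes and in WT CD8 cells for 15.

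**Figure D1:**
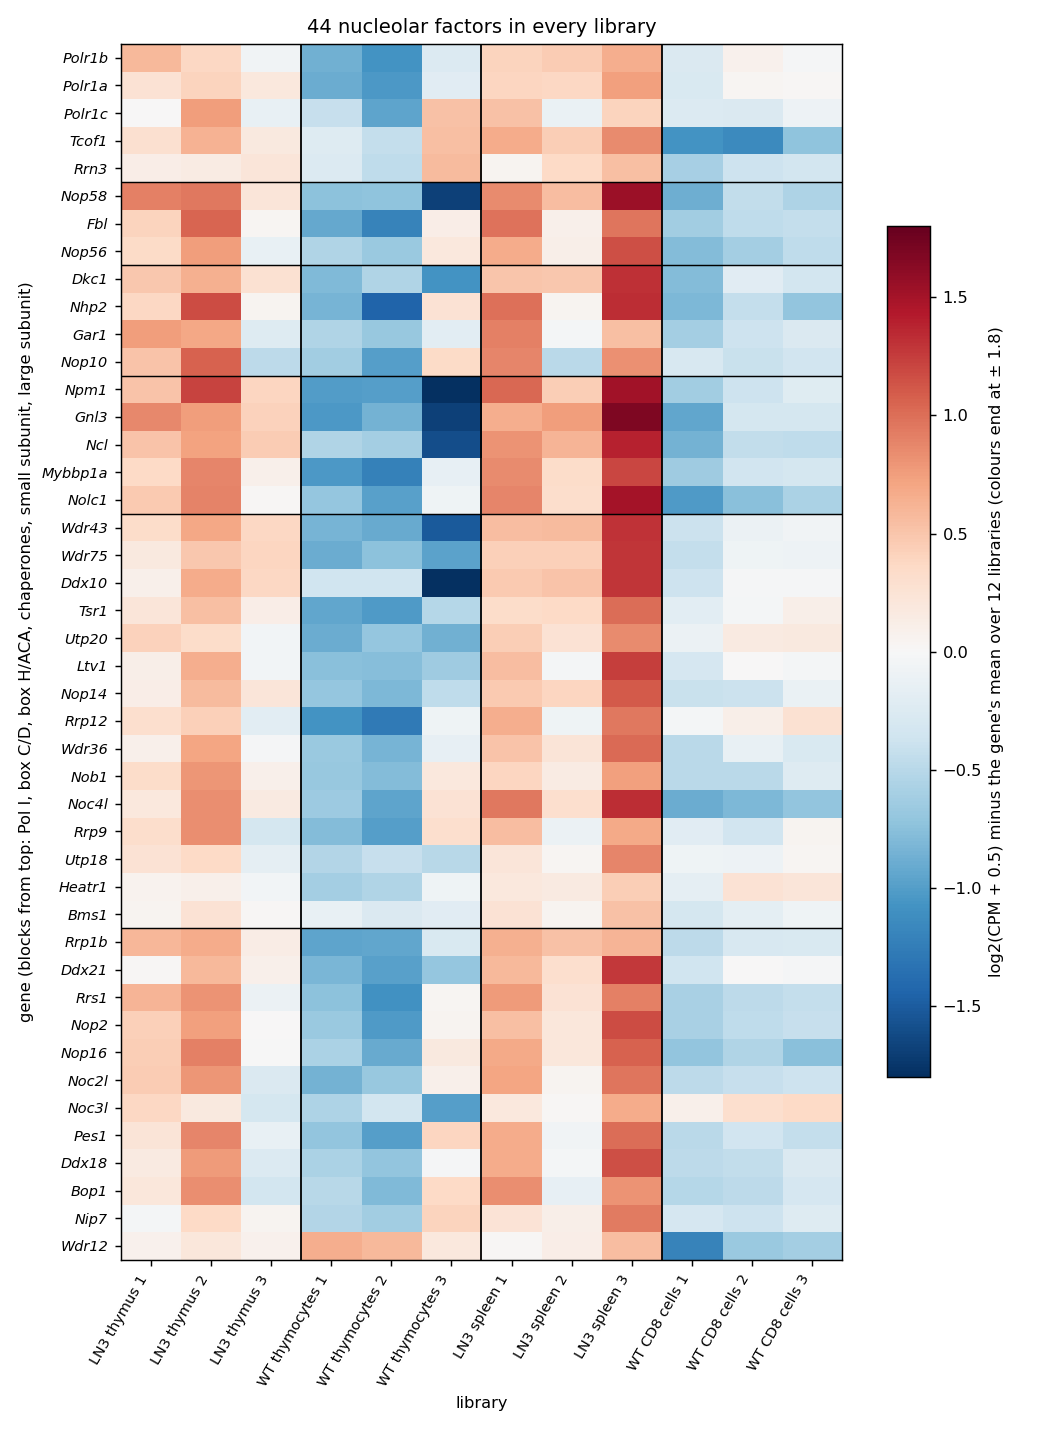
Level of each of the 44 genes in each of the 12 libraries (columns), as log2(CPM + 0.5) minus the gene's mean over the libraries, with genes in rows by role. Cells are mostly red in the LN3 columns and mostly blue in the WT columns, LN3 spleen 3 is the highest of its group in 38 genes, WT thymocytes 3 departs from its group in both directions, and Wdr12 (last row) is high in WT thymocytes.

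Compared with WT thymocytes, thymic T-ALL cells had higher levels of 15 of the 44 genes and lower levels of 0 (edgeR adjusted p below 0.05 over all genes tested), where 6.06% of all tested genes were higher and 5.21% lower. The log2 differences had a median of 0.94, against −0.04 over all tested genes, and were above 0 in 43 of the 44 genes. Compared with WT CD8 cells, splenic T-ALL cells had higher levels of 27 genes and lower levels of 0, where 17.9% of all tested genes were higher and 13% lower. There the median log2 difference was 0.99, against −0.11 over all tested genes, and all 44 values were above 0. These are different libraries on each side, although LN3 thymus and LN3 spleen samples may come from the same animals. Of the genes called, 11 were called in both organs (73.3% of the thymus calls and 40.7% of the spleen calls), 4 in the thymus comparison alone and 16 in the spleen comparison alone, and 13 in neither. A call in the spleen alone does not show that the organs differ. The difference of the differences was tested and passed for 1 gene, Wdr12, described below. All 3 LN3 libraries lay above all 3 WT libraries for 23 genes in the thymus, as they did for 14.4% of all tested genes, and for 37 genes in the spleen, as for 27.5% of all tested genes.

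The number of calls depended on single libraries, as did the number over all tested genes. In the thymus it was 6 without WT thymocytes 1, 9 without WT thymocytes 2, 9 without LN3 thymus 2 and 28 without WT thymocytes 3. In the spleen it was 11 without WT CD8 cells 1 and 12 without LN3 spleen 3. Scaling by library totals alone gave 15 calls in the spleen, where 2529 of all tested genes were higher. Scaling also moved the whole table: the median log2 difference of all tested genes was −0.24 in the thymus and −0.51 in the spleen with library totals, while that of the 44 genes was 0.77 and 0.56.

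**Figure D2:**
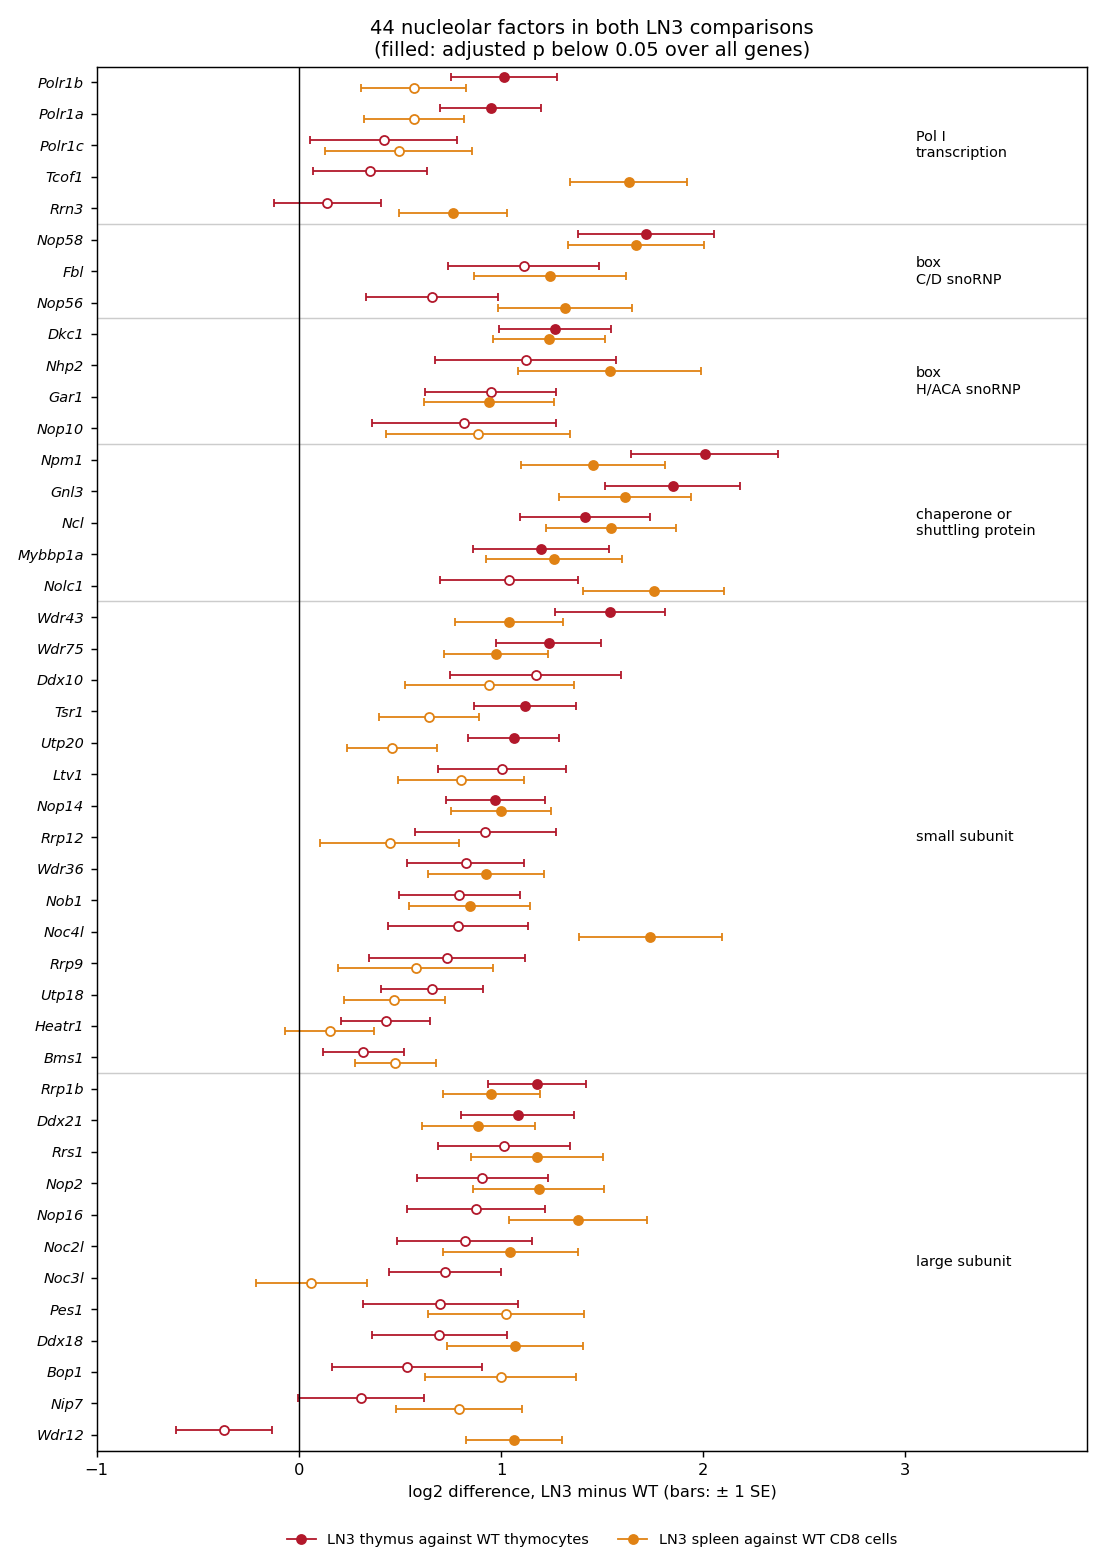
Log2 difference of each of the 44 genes in LN3 thymus against WT thymocytes (red) and LN3 spleen against WT CD8 cells (orange), with bars of 1 SE on each side and filled points where the adjusted p is below 0.05. All points but Wdr12 in the thymus lie right of 0, and the 5 chaperone or shuttling genes reach between 1.04 and 2.01.

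Promoter sequences are shown for genes higher in 1 or both organs. RefSeq windows of 300 bases on GRCm38.p6, 250 before and 50 after the gene's start, were matched by symbol for 37 of the 44 genes. The motif CACGTG, the E-box that Myc and other helix-loop-helix factors are known to bind and which reads the same on both strands, was in the windows of 9 of these 37 genes (24.3%). It was in those of 18 of 102 other ribosome biogenesis genes (17.6%), in those of 8.1% of all 27025 genes with a window, and in 7.2% of all 32851 windows. Of 8543 genes with a window of 60% GC or more, 11.6% held it; the median GC content was 59.7% in the windows of the 37 genes and 52.7% in all windows. The genes with the motif were Nop2, Ltv1, Utp20, Pes1, Mybbp1a, Tsr1, Utp18, Wdr43 and Rrn3. Of these 9 genes, 4 were higher in LN3 thymus and 4 in LN3 spleen, against 10 and 18 of the 28 genes without it. Over all tested genes, with or without the motif, 6.06% were higher in the thymus and 17.9% in the spleen. Windows with the motif, in capitals, are given for Wdr43 (chr17:71615965-71616264, plus strand) and Nop2 (chr6:125131633-125131932, plus strand), and windows without it for Nop58 (chr1:59684756-59685055, plus strand) and Ncl (chr1:86359406-86359705, minus strand), 3 of which belong to genes higher in both organs. In Wdr43 the motif starts 17 bases after the RefSeq start on which the window was set. GENCODE M21 places the start of Wdr43 at 71615895, upstream of this window.
Wdr43: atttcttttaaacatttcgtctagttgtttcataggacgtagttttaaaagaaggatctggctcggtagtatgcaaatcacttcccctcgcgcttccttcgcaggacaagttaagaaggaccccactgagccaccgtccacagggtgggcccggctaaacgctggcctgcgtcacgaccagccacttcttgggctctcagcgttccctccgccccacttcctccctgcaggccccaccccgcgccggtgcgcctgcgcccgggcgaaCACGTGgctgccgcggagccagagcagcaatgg
Nop2: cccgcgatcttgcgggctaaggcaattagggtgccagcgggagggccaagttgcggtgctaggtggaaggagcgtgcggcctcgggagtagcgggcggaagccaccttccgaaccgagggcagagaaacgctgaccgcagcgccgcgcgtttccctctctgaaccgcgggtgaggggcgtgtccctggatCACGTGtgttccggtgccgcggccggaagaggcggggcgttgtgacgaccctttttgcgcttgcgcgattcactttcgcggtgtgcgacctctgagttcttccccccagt
Nop58: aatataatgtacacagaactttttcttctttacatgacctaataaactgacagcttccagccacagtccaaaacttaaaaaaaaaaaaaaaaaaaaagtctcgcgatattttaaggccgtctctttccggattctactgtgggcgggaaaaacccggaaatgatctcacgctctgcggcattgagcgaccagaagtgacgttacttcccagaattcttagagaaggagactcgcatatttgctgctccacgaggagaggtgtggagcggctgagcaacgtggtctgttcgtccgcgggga
Ncl: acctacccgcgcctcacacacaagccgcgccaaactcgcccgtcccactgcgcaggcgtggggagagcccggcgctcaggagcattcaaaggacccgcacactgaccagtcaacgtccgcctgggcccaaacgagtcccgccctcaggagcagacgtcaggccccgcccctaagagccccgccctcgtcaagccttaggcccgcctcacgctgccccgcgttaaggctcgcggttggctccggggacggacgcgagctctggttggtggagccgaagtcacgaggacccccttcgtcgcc

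The counts by role that follow stand beside 6.06% of all tested genes called higher in the thymus and 17.9% in the spleen. Of 5 nucleolar chaperones and shuttling proteins, 4 were higher in LN3 thymus (median log2 difference 1.42) and 5 in LN3 spleen (median 1.54). Npm1, nucleophosmin, a histone and ribosomal protein chaperone of the granular nucleolus, was at 824.5, 1343 and 756.5 CPM in LN3 thymus, against 287.2, 288.7 and 151.4 CPM in WT thymocytes. It was at 1180, 786 and 1645 CPM in LN3 spleen, against 374.2, 446 and 496.6 CPM in WT CD8 cells. No LN3 library overlapped a WT library, and the lowest Npm1 value of all was that of WT thymocytes 3. Npm1 rose 4.02-fold in the thymus (log2 difference 2.01, SE 0.36, adjusted p = 0.0039), the largest difference of the 44 genes there, and 2.74-fold in the spleen (1.46, SE 0.36, adjusted p = 0.00887).

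Ncl, nucleolin, an RNA-binding protein of rRNA transcription and early processing, was at 1218, 1407 and 1161 CPM in LN3 thymus, against 584, 553.5 and 281.8 CPM in WT thymocytes. In the spleen it was at 1493, 1294 and 2213 CPM in LN3, against 473, 625.4 and 617 CPM in WT CD8 cells. The LN3 libraries again lay above all WT libraries, and Ncl rose 2.67-fold in the thymus (log2 difference 1.42, SE 0.32, adjusted p = 0.0135) and 2.91-fold in the spleen (1.54, SE 0.32, adjusted p = 0.00366). Nolc1, a snoRNP chaperone, had the largest difference of the 44 genes in the spleen, at 246.3, 167 and 380.8 CPM in LN3, against 65.86, 79.36 and 90.17 CPM in WT CD8 cells (3.37-fold, log2 difference 1.75, SE 0.35, adjusted p = 0.00278). In the thymus Nolc1 was at 186.3, 248.2 and 135.7 CPM in LN3, against 82.79, 67.86 and 126.6 CPM in WT thymocytes, a difference that did not pass (1.04, SE 0.34, adjusted p = 0.0707). Gnl3 (nucleostemin, a nucleolar GTPase) rose in both organs, 3.6-fold in the thymus and 3.06-fold in the spleen, as did Mybbp1a, 2.30-fold and 2.40-fold. The Mybbp1a call was kept in 4 of 12 refits without a single library in the thymus, and in 10 of 12 in the spleen (not without LN3 spleen 3 or WT CD8 cells 1).

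**Figure D3:**
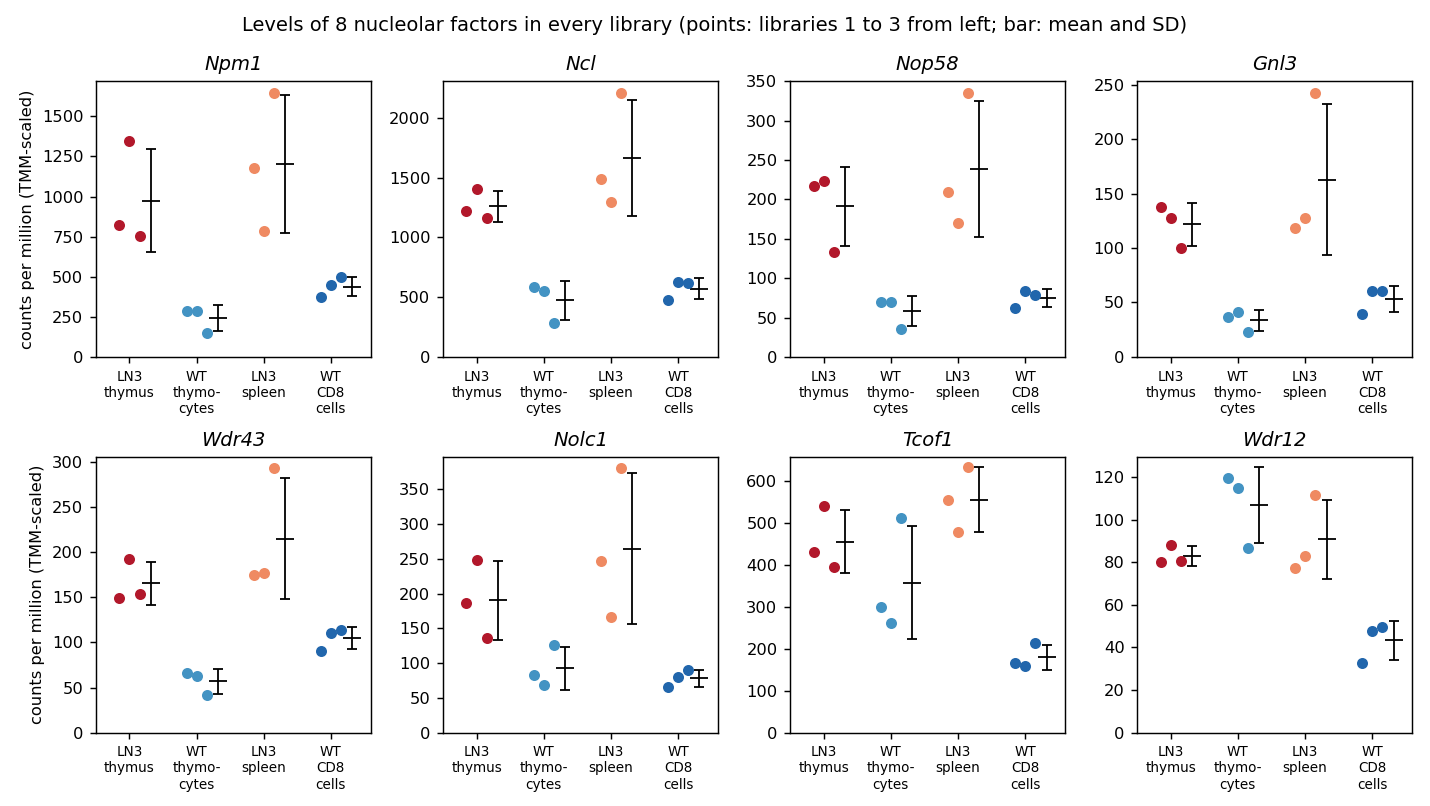
TMM-scaled CPM of 8 genes (panels) in LN3 thymus, WT thymocytes, LN3 spleen and WT CD8 cells, 1 point per library, with the group's mean and SD as a bar to the right. Npm1, Ncl, Nop58, Gnl3, Wdr43 and Nolc1 are above WT in every LN3 library of their organ, Tcof1 overlaps in the thymus, and Wdr12 is at 80.06 to 88.14 CPM in LN3 thymus, overlapping the 86.58 to 119.7 CPM of WT thymocytes at the lower end.

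The box C/D snoRNP, which methylates rRNA on ribose, has 3 core proteins on the list. Of these, 1 was higher in LN3 thymus and 3 were higher in LN3 spleen. Nop58, a scaffold of the complex, was at 216.4, 223.3 and 133.8 CPM in LN3 thymus, against 69.16, 69.39 and 35.73 CPM in WT thymocytes, and at 208.8, 170.1 and 335.2 CPM in LN3 spleen, against 62.26, 84.26 and 78.41 CPM in WT CD8 cells. It rose 3.29-fold in the thymus (log2 difference 1.72, SE 0.34, adjusted p = 0.00638) and 3.17-fold in the spleen (1.67, SE 0.34, adjusted p = 0.00309), with no overlap in either organ. Nop56, its partner scaffold, was at 246.1, 324.3 and 175.4 CPM in LN3 thymus, against 132, 120.8 and 219.3 CPM in WT thymocytes. WT thymocytes 3 reached into the LN3 range there, and the difference did not pass (0.66, SE 0.33, adjusted p = 0.236). In the spleen Nop56 was at 307, 207.2 and 430.5 CPM in LN3, against 112.6, 126.8 and 139.9 CPM in WT CD8 cells, and rose 2.49-fold (1.32, SE 0.33, adjusted p = 0.0102). Fbl, the methyltransferase of the complex, had a log2 difference of 1.11 in the thymus (adjusted p = 0.0773) and rose by 1.24 in the spleen (adjusted p = 0.0248). The spleen calls of Nop56 and Fbl ended without LN3 spleen 3 or WT CD8 cells 1, and that of Fbl also without LN3 spleen 1, WT CD8 cells 2 or WT CD8 cells 3 (adjusted p up to 0.0538 for Nop56 and 0.0886 for Fbl over the alternatives).

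The box H/ACA snoRNP, which converts uridine to pseudouridine and is also a part of telomerase, has 4 core proteins on the list, of which 1 was higher in LN3 thymus and 3 were higher in LN3 spleen. Dkc1, dyskerin, its catalytic subunit, was at 146.4, 161.9 and 126.1 CPM in LN3 thymus, against 59.98, 71.48 and 49.13 CPM in WT thymocytes. It was at 147.9, 145.7 and 259.1 CPM in LN3 spleen, against 60.62, 90.55 and 82.85 CPM in WT CD8 cells. Dkc1 rose 2.40-fold in the thymus (log2 difference 1.27, SE 0.28, adjusted p = 0.0114) and 2.36-fold in the spleen (1.24, SE 0.28, adjusted p = 0.0054), with no overlap. Nhp2, an RNA-binding core protein, was at 58.26, 102.3 and 46.45 CPM in LN3 thymus, against 24.9, 16.29 and 54.03 CPM in WT thymocytes, which overlapped (1.12, SE 0.45, adjusted p = 0.14). In the spleen Nhp2 was at 90.29, 46.55 and 113.4 CPM in LN3, against 25.59, 33.36 and 27.24 CPM in WT CD8 cells, and rose 2.90-fold (1.54, SE 0.45, adjusted p = 0.022). Gar1 also rose in the spleen (0.94, adjusted p = 0.0422), and Nop10 passed in neither organ. The Dkc1 call in the thymus ended without WT thymocytes 1 (adjusted p up to 0.064 over the alternatives), the Nhp2 call ended without LN3 spleen 3, WT CD8 cells 1 or WT CD8 cells 3 (up to 0.0955), and the Gar1 call was kept in 6 of 12 refits without a single library.

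Of 5 genes of RNA polymerase I transcription, 2 were higher in each organ, and they were not the same genes. Polr1b, the second-largest catalytic subunit, was at 86.73, 74.51 and 54.97 CPM in LN3 thymus, against 31.31, 27.07 and 48.7 CPM in WT thymocytes, and rose 2.02-fold (log2 difference 1.01, SE 0.26, adjusted p = 0.0258). In the spleen it was at 76.01, 79.6 and 90.64 CPM in LN3, against 48.01, 60.94 and 57.08 CPM in WT CD8 cells (0.57, SE 0.26, adjusted p = 0.111). Polr1a, the largest subunit, likewise rose in the thymus (0.95, adjusted p = 0.0273) and had 0.57 in the spleen (adjusted p = 0.0941). The thymus calls ended without LN3 thymus 2, WT thymocytes 1 or WT thymocytes 2 for both genes, without LN3 thymus 1 for Polr1b, and without LN3 thymus 3 or WT CD8 cells 1 for Polr1a (adjusted p up to 0.133 for Polr1b and 0.149 for Polr1a). Tcof1, treacle, a cofactor of rRNA gene transcription, passed in the spleen instead. There it was at 554.7, 476.5 and 632.4 CPM in LN3, against 166, 158.7 and 212.2 CPM in WT CD8 cells, and rose 3.10-fold (1.63, SE 0.29, adjusted p = 0.0014), the smallest adjusted p of the 44 genes there. In the thymus Tcof1 was at 429.9, 538.9 and 394.9 CPM in LN3, against 298.6, 261.3 and 510.1 CPM in WT thymocytes (0.35, SE 0.28, adjusted p = 0.496), with WT thymocytes 3 inside the LN3 range. The difference between these differences was 1.28 (SE 0.40) and did not pass (adjusted p = 0.101).

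Rrn3, the initiation factor that brings the polymerase to the rRNA promoter, had the smallest difference of the 44 genes in the thymus. It was at 81.49, 83.27 and 87 CPM in LN3 thymus, against 62.88, 54.51 and 111.2 CPM in WT thymocytes (log2 difference 0.14, SE 0.27, adjusted p = 0.8), and without WT thymocytes 2 the value was −0.06. In LN3 spleen it was at 77.67, 96.08 and 109.3 CPM, against 49.49, 57.72 and 59.55 CPM in WT CD8 cells (0.76, SE 0.27, adjusted p = 0.0454). That call was kept in 3 of 12 refits without a single library, those without LN3 spleen 1, WT thymocytes 2 or WT thymocytes 3 (adjusted p up to 0.216). Polr1c passed in neither organ.

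Small subunit factors, which cut the precursor on its way to 18S rRNA and carry the 40S particle to the cytoplasm, were called 5 times of 15 in the thymus and 6 times of 15 in the spleen. Wdr43, whose promoter window is given above, is a subunit of the early processome that acts at the 5′ end of the precursor. It was at 149.5, 192.7 and 153.7 CPM in LN3 thymus, against 66.19, 63.27 and 41.23 CPM in WT thymocytes. It rose 2.90-fold there (log2 difference 1.54, SE 0.27, adjusted p = 0.00358), the smallest adjusted p of the 44 genes. In the spleen it was at 175, 177.2 and 293.1 CPM in LN3, against 90.52, 110.1 and 113.4 CPM in WT CD8 cells, and rose 2.05-fold (1.04, SE 0.27, adjusted p = 0.0119). Noc4l, a nuclear factor of 40S maturation, was at 52.76, 82.69 and 51.94 CPM in LN3 thymus, against 29.28, 23.76 and 55.49 CPM in WT thymocytes (0.79, SE 0.35, adjusted p = 0.179). It was at 89.6, 57.05 and 116.7 CPM in LN3 spleen, against 24.77, 26.13 and 28.05 CPM in WT CD8 cells, and rose 3.33-fold (1.74, SE 0.35, adjusted p = 0.00319). The processome subunit Wdr75 and Nop14 rose in both organs. Utp20 and Tsr1 rose in the thymus, and Wdr36 and Nob1, the endonuclease that makes the 3′ end of 18S rRNA, in the spleen. In the spleen the Wdr43, Wdr75 and Wdr36 calls ended without LN3 spleen 3 or WT CD8 cells 1 (adjusted p up to 0.124, 0.122 and 0.143), that of Wdr36 also without WT CD8 cells 2 or 3, and that of Nob1 was kept in 4 of 12 refits. In the thymus the calls of Nop14, Tsr1 and Utp20 ended without WT thymocytes 1, and those of Nop14 and Tsr1 also without WT thymocytes 2 or LN3 thymus 2.

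Heatr1, Bms1 and Rrp12 passed in neither organ. Heatr1, a large processome subunit, was at 140.3, 142.2 and 129.6 CPM in LN3 thymus, against 86.9, 92.12 and 127.1 CPM in WT thymocytes (log2 difference 0.43, SE 0.22, adjusted p = 0.255). In the spleen it was at 152.8, 149.1 and 182.2 CPM in LN3, against 118.9, 160.4 and 156.1 CPM in WT CD8 cells (0.15, SE 0.22, adjusted p = 0.607), and this value was −0.26 with library totals. Bms1, a GTPase of the processome, was at 125.7, 145.5 and 123.6 CPM in LN3 thymus, against 110.6, 101.3 and 104.8 CPM in WT thymocytes, without overlap but with a difference of 0.32 that did not pass (SE 0.20, adjusted p = 0.366). Bms1 was at 145.1, 125.1 and 175.7 CPM in LN3 spleen, against 97.61, 107.3 and 115.2 CPM in WT CD8 cells (0.48, SE 0.20, adjusted p = 0.0853). Rrp12, an export factor of pre-40S particles, was at 58.13, 63.27 and 41.31 CPM in LN3 thymus, against 22, 19.29 and 44.58 CPM in WT thymocytes (0.92, SE 0.35, adjusted p = 0.115). It was at 74.36, 44.76 and 91.55 CPM in LN3 spleen, against 46, 50.93 and 57.32 CPM in WT CD8 cells (0.45, SE 0.34, adjusted p = 0.323).

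Large subunit factors were called 2 times of 12 in the thymus and 8 times of 12 in the spleen, where 6.06% and 17.9% of all tested genes were called higher. The test of the organ difference passed for 1 of these 12 genes. Ddx21, an RNA helicase of rRNA transcription and processing, was at 291.1, 429.7 and 304.3 CPM in LN3 thymus, against 161.8, 145 and 176.9 CPM in WT thymocytes, and rose 2.12-fold (log2 difference 1.08, SE 0.28, adjusted p = 0.0257). In the spleen it was at 431.7, 353.5 and 690.7 CPM in LN3, against 224.5, 289.1 and 283.7 CPM in WT CD8 cells, and rose 1.85-fold (0.89, SE 0.28, adjusted p = 0.0295). Rrp1b, a nucleolar protein of 60S assembly, was at 89.96, 94.09 and 65.21 CPM in LN3 thymus, against 30.5, 30.69 and 49.13 CPM in WT thymocytes, and rose 2.26-fold (1.18, SE 0.24, adjusted p = 0.00816). Its LN3 spleen libraries were close together, at 92.99, 86.05 and 91.1 CPM, against 42.56, 48.37 and 48.81 CPM in WT CD8 cells (1.93-fold, 0.95, SE 0.24, adjusted p = 0.0104). Nop16 was at 36.28, 50.39 and 26.29 CPM in LN3 thymus, against 17.68, 13.96 and 29.98 CPM in WT thymocytes (0.87, SE 0.34, adjusted p = 0.128). In the spleen Nop16 was at 42.84, 30.65 and 55.95 CPM in LN3, against 16.04, 18.13 and 15.52 CPM in WT CD8 cells, and rose 2.60-fold (1.38, SE 0.34, adjusted p = 0.00958). The Rrp1b calls ended without WT thymocytes 1 in the thymus and without WT CD8 cells 1 in the spleen (adjusted p up to 0.0622 and 0.0635). Those of Ddx21 ended without LN3 thymus 2, WT thymocytes 1 or WT thymocytes 2 in the thymus (up to 0.109), and without LN3 spleen 3 or any of the WT CD8 libraries in the spleen (up to 0.151).

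Nip7 and Noc3l, both 60S assembly factors, passed in neither organ. Nip7 was at 35.36, 46.67 and 37.48 CPM in LN3 thymus, against 25.1, 23.34 and 48.1 CPM in WT thymocytes (log2 difference 0.31, SE 0.31, adjusted p = 0.601). It was at 43.36, 39.27 and 70.06 CPM in LN3 spleen, against 29.35, 28.06 and 30.82 CPM in WT CD8 cells (0.79, SE 0.31, adjusted p = 0.0704). Noc3l was at 33.09, 29.44 and 46.34 CPM in LN3 spleen, against 30.88, 35.95 and 37.4 CPM in WT CD8 cells, the smallest difference of the 44 genes there (0.06, SE 0.27, adjusted p = 0.874), and −0.15 without LN3 spleen 3. In the thymus it was at 37.79, 32.79 and 23.28 CPM in LN3, against 19.63, 22.97 and 14.26 CPM in WT thymocytes (0.72, SE 0.28, adjusted p = 0.122).

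Wdr12 was the gene below 0 in the thymus. With Pes1 and Bop1, its protein forms the PeBoW complex, which processes the precursor on the way to 28S and 5.8S rRNA. Wdr12 was at 80.06, 88.14 and 80.48 CPM in LN3 thymus, against 119.7, 114.7 and 86.58 CPM in WT thymocytes (log2 difference −0.37, SE 0.24, adjusted p = 0.377). It was at 77.15, 83.1 and 111.7 CPM in LN3 spleen, against 32.74, 47.67 and 49.6 CPM in WT CD8 cells, and rose 2.09-fold (1.06, SE 0.24, adjusted p = 0.00555). The 6 LN3 libraries thus spanned 77.15 to 111.7 CPM, while the controls of the 2 organs did not overlap. The spleen difference exceeded the thymus difference by 1.43 (SE 0.34, adjusted p = 0.0307), 1 of the 44 genes called higher in that test and 0 called lower, where 3.29% of all tested genes were called higher and 0.895% lower. The call was kept in 3 of the 12 refits without a single library, those without LN3 spleen 1, LN3 spleen 2 or WT thymocytes 3 (adjusted p up to 0.105), and 0 of the 44 genes were called with the replicate block. With offsets for GC content, an alternative chosen after seeing the data, Wdr12 was lower in LN3 thymus (−0.96, adjusted p = 0.0271). Exons of Wdr12 overlap those of Carf on the other strand, and no source used here says whether the counting used strand. For Pes1 and Bop1 the log2 differences were 0.70 and 0.54 in the thymus (adjusted p = 0.291 and 0.416), and 1.02 and 0.998 in the spleen (adjusted p = 0.0602 and 0.058), and neither passed the test of the organ difference (adjusted p = 0.783 and 0.68).

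Calls between the control populations were near or below the background share. In WT CD8 cells against WT thymocytes 3 genes were higher and 2 lower, where 7.24% of all tested genes were higher and 8.48% lower, and the median log2 difference was 0.23 against 0 over all tested genes. The higher genes were Utp20 (0.90, adjusted p = 0.0169), Wdr43 (0.88, adjusted p = 0.0428) and Noc3l (0.87, adjusted p = 0.0499). The lower genes were Wdr12, which fell by 1.30 (adjusted p = 0.00312), and Tcof1, which fell by 0.99 (adjusted p = 0.032). The number higher ranged from 0 to 11 over the alternatives tried. It was 0 without WT thymocytes 1, WT CD8 cells 2 or WT CD8 cells 3, 1 without LN3 thymus 2, LN3 spleen 1, WT thymocytes 2 or WT CD8 cells 1, 5 without LN3 spleen 3 and 6 without WT thymocytes 3. The number lower was 1 without WT thymocytes 3, WT CD8 cells 1 or WT CD8 cells 2. The groups did not overlap for 11 genes above and 2 below, as for 17.5% and 19% of all tested genes.

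Between the leukaemias of the 2 organs none of the 44 genes passed. In LN3 spleen against LN3 thymus 0 genes were higher and 0 lower (0 at an unadjusted p under 0.05, and 0 with DESeq2 and with limma-voom), where 0.694% of all tested genes were higher and 0.0287% lower. All 44 log2 differences were above 0, with a median of 0.28, a range of 0.01 to 0.53 and SEs of 0.20 to 0.45. LN3 spleen 3 was above the mean of the other LN3 spleen libraries in all 44 genes, and without it the median difference between the organs was 0.05. Heatr1 was the only gene whose LN3 spleen libraries all lay above the LN3 thymus libraries, as 6.22% of all tested genes did.

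Set against WT thymocytes, LN3 spleen had 32 genes higher and 0 lower, where 11.3% of all tested genes were higher and 8.51% lower. The LN3 libraries lay above the WT libraries for 29 genes, as for 18.4% of all tested genes. The count of 32 was 14 without WT thymocytes 1, 16 without LN3 spleen 3, 19 without WT thymocytes 2 and 21 without LN3 spleen 1. Over all tested genes the count was 2365 in the main fit and, in the same order, 1016, 1302, 1317 and 1809. This comparison shares its LN3 libraries with the spleen comparison and its WT libraries with the thymus comparison, so it is not independent of them. Median log2 differences of the 44 genes were 0.94 in LN3 thymus and 1.19 in LN3 spleen against the same WT thymocytes. Wdr12 was again the only gene below 0 (−0.24, adjusted p = 0.479).

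Gene GC content differed between called and uncalled genes. In LN3 thymus against WT thymocytes the 15 genes called higher had a median GC content of 46.3%, and the 29 not called 50.8%. For LN3 spleen against WT CD8 cells the medians were 50.4% for the 27 called and 47.3% for the 17 not called. The GC slopes of the LN3 spleen and WT CD8 libraries did not overlap, and their part in the spleen calls was not tested. In WT thymocytes 3, the log2 ratio of CPM to the mean of the other WT thymocyte libraries had a median of −0.61 over the 12 genes under 45% GC and of 1.04 over the 8 genes of 55% GC or more. Pearson's r with GC content over the 44 genes was 0.748 in that library, a description of genes that share the library. Ddx10 (42.84% GC), a helicase of 18S rRNA processing, was at 11.42 CPM in WT thymocytes 3 and at 44.46 and 44.83 CPM in WT thymocytes 1 and 2. Without WT thymocytes 3, 28 of the 44 genes were higher in LN3 thymus, and with GC offsets 28 were higher and 1, Wdr12, lower. Without the 3 libraries with the steepest GC slopes the count was 14 in the thymus and 35 in the spleen. Npm1, Nop58, Gnl3, Wdr43 and Wdr75 were called in the thymus under all 24 alternatives, and Npm1, Ncl, Nop58, Nolc1, Gnl3, Nop14, Nop16, Tcof1 and Noc4l in the spleen under all 24.

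**Figure D4:**
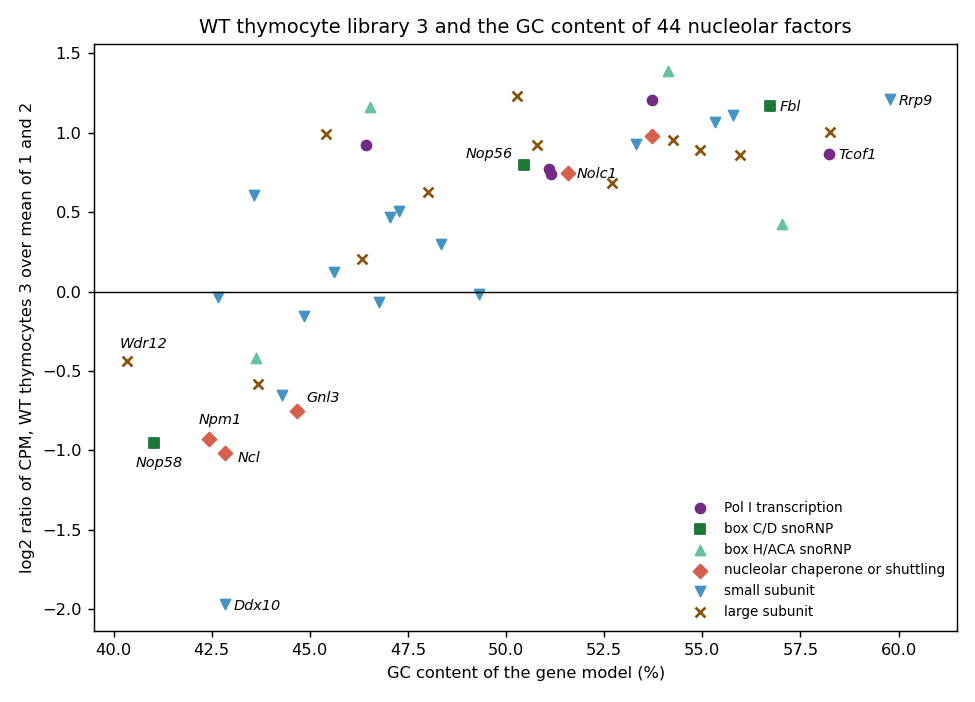
For each of the 44 genes, GC content of the gene model (%, horizontal) and the log2 ratio of CPM in WT thymocyte library 3 over the mean of WT thymocyte libraries 1 and 2 (vertical), with symbols by role. Genes under 45% GC have a median of −0.61 and genes of 55% GC or more a median of 1.04, and Ddx10 is the lowest point.

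Several of the genes are also hosts of small nucleolar RNAs. In the GENCODE M21 annotation, 7 of the 44 genes (15.9%) contain snoRNA genes on their own strand, 21 in all, as do 1.37% of the tested genes with 1 locus. Nop56 contains 5, Nop58 4, and Ncl, Gnl3 and Wdr43 contain 3 each, among them Snord57 in Nop56, Snord11 in Nop58, Snord82 in Ncl, Snord19 in Gnl3 and Snord53 in Wdr43. Tsr1 contains 2 and Dkc1 1. Of these 7 genes, 6 were higher in LN3 thymus (all but Nop56; median log2 difference 1.42) and 6 in LN3 spleen (all but Tsr1; median 1.32), against 9 and 21 of the other 37 genes (medians 0.87 and 0.94). The 7 hosts had a median GC content of 44.3%, against 50.8% for the other 37, and their part in the thymus difference was not tested. Of the 277 other tested hosts, 43 were higher and 10 lower in LN3 thymus, and 91 were higher and 12 lower in LN3 spleen. Among all tested genes 6.06% were higher and 5.21% lower in LN3 thymus, and 17.9% and 13% in LN3 spleen. The snoRNAs themselves generally lack poly(A) tails, so this assay does not measure them.

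Myc itself was at 244.9, 402.9 and 266.8 CPM in LN3 thymus, against 60.99, 45.32 and 91.91 CPM in WT thymocytes, and at 321.5, 341.1 and 317.1 CPM in LN3 spleen, against 61.6, 85.02 and 85.04 CPM in WT CD8 cells. No LN3 library overlapped a WT library. Its log2 difference was 2.21 in the thymus and 2.08 in the spleen (adjusted p = 0.000682 and 0.000368), and its part in the differences of the 44 genes was not tested.

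Of 119 other ribosome biogenesis genes tested, 21 were higher in LN3 thymus (median log2 difference 0.51) and 44 in LN3 spleen (median 0.70), with 0 lower in either. Among all tested genes 6.06% were higher in LN3 thymus and 17.9% in LN3 spleen. Against WT thymocytes 51 of the 119 were higher in LN3 spleen and 0 lower, where 11.3% of all tested genes were higher, and between the LN3 organs 0 passed. Naf1, an assembly factor of box H/ACA snoRNPs, rose 3.39-fold in the thymus (adjusted p = 0.000994) and 3.70-fold in the spleen (adjusted p = 0.000245). In the spleen Snu13, a core protein of box C/D snoRNPs, rose 4.13-fold (adjusted p = 0.00107), and the snoRNP assembly ATPases Ruvbl1 and Ruvbl2 rose 3.53-fold and 3.23-fold. Mdn1, the large ATPase of 60S maturation, rose 2.5-fold in the thymus (adjusted p = 0.0171), and had a log2 difference of −0.73 in the spleen (adjusted p = 0.0897). Cytosolic ribosomal protein genes, the products' partners in the subunits, had 18 of 77 higher in LN3 thymus (median 1.22) and 2 of 77 in LN3 spleen (median 0.38), with 0 lower in either. Their share was above that of all tested genes (6.06%) in the thymus and below it (17.9%) in the spleen. The difference between the organs passed for 0 of the 77 (8 at an unadjusted p under 0.05).

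**Figure D5:**
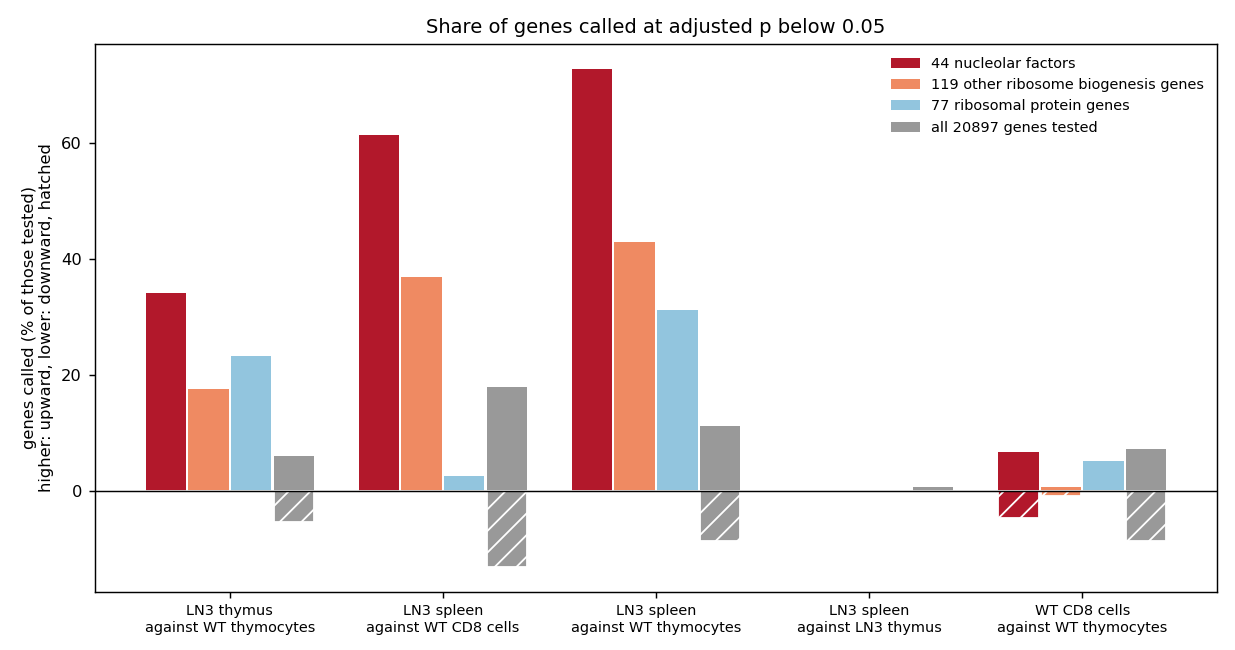
Percent of genes called at an adjusted p below 0.05 in 5 comparisons, for the 44 nucleolar factors, 119 other ribosome biogenesis genes, 77 ribosomal protein genes and all 20897 tested genes, higher upward and lower downward. The nucleolar factors have 15, 27 and 32 genes higher in the comparisons of LN3 with WT, 0 between the LN3 organs, and 3 higher and 2 lower between the WT groups.

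Cell division genes and markers of other cells differed between the groups too, and their part in the differences above was not tested. Beside the counts that follow, 6.06% of all tested genes were higher and 5.21% lower in LN3 thymus, and 17.9% and 13% in LN3 spleen. A single gene called in a list of 4 to 7 genes says little beside these shares. Of 24 S-phase genes 2 were higher in LN3 thymus and 24 in LN3 spleen, and of 20 G2/M genes 0 and 20. Summed G2/M levels were 3546 to 4391 CPM in LN3 thymus and 2147 to 3620 CPM in WT thymocytes, and 4965 to 7640 CPM in LN3 spleen and 290.6 to 887.2 CPM in WT CD8 cells. Of 7 double-positive thymocyte genes 4 were lower in LN3 thymus, at a summed 1082 to 2134 CPM in LN3 and 8293 to 12270 CPM in WT thymocytes. In the same comparison 2 of 4 NK genes were lower (1.069 to 4.048 CPM summed in LN3 thymus and 9.019 to 17 CPM in WT thymocytes), as were 1 of 5 erythroid genes (7.114 to 97.47 and 11.09 to 2493 CPM) and 1 of 6 B-cell genes (281.6 to 461.5 and 342.9 to 589.8 CPM). Mitochondrial genes took 2.216 to 3.484% of counts in LN3 thymus and 1.098 to 1.885% in WT thymocytes, and 2.952 to 3.627% in LN3 spleen and 2.343 to 2.658% in WT CD8 cells, without overlap in either organ. Of 5 erythroid genes 3 were higher in LN3 spleen, at a summed 1145 to 3952 CPM in LN3 and 26.28 to 416 CPM in WT CD8 cells. Of 6 myeloid genes 1 was lower in LN3 spleen, at 168.7 to 624.1 CPM in LN3 and 184.6 to 2556 CPM in WT CD8 cells, with the highest level in WT CD8 cells 2 and the lowest of that group in WT CD8 cells 3. Of 4 NK genes 4 were lower, at 5.004 to 15.06 CPM in LN3 spleen and 210.5 to 480.5 CPM in WT CD8 cells, with Ncr1 at 0 in 2 of the LN3 spleen libraries; Klrk1 and Eomes of that list are also expressed by CD8 T cells. Of 6 B-cell genes 0 passed in LN3 spleen, with a summed 1956 CPM in LN3 spleen 1 against 258.3 CPM in the lowest LN3 spleen library, and 467.1 to 1329 CPM in WT CD8 cells. Of 6 dendritic cell genes 1 was lower in LN3 spleen, at 208.4 to 1206 CPM in LN3 and 99.51 to 1141 CPM in WT CD8 cells. The double-positive list split in the spleen comparison. Rag1, Dntt and Ptcra rose in LN3 spleen (log2 differences 6.8, 6.5 and 5.7), Cd8a and Cd8b1 fell (−2.2 and −2.6), and Cd4 and Rag2 did not pass. Of 4 stroma genes 0 passed in LN3 thymus and 1, Col1a2, rose in LN3 spleen (7.9, adjusted p = 0.00701). Col1a2 was at 1.219, 249 and 142.7 CPM in the LN3 spleen libraries, and Col1a1, the other collagen gene listed, at 3.309, 1.908 and 1.422 CPM. Col1a1, Pecam1 and Epcam did not pass in LN3 spleen (log2 differences 0.41, −0.25 and −0.11). Fewer cells that express a gene and less RNA of it per cell cannot be told apart in such bulk samples.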

How the data were processed

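Poly(A) RNA of 12 mouse samples was made into directional libraries, per the labels' protocols. The deposited values are the authors' estimated counts, 1 row a gene. Per the submitters' processing notes, FastQC, kallisto 0.46.1, DESeq2 and the build GRCm38 were used. No source used here gives the annotation or the use of strand. All values were already whole numbers.

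Counts were fitted with edgeR 4.0.16 (R 4.3.3): TMM factors, filterByExpr and the quasi-likelihood test, with a mean for each of the 4 groups fitted on all 12 libraries together, which left 8 residual degrees of freedom. Adjusted p-values are Benjamini-Hochberg values over 20897 genes, called below 0.05. Kallisto divides reads of near-identical copies by estimation, and exons of 17 of the 44 genes overlap another gene's, so these values are less certain. Gene positions and GC content come from GENCODE M21, and promoter windows from RefSeq. Totals per library ran from 12690000 to 42480000, and a count of 3 corresponds to 0.0656 to 0.261 CPM.

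Genes given in every sample were the highest in level and the most changed of each role, the 3 least changed of each organ and those called in the test of the organ difference; other names were added after their values were seen. Members, lists and tests were chosen with earlier results of these data known. Alternatives included DESeq2 1.42.0, limma-voom (limma 3.58.1), other scalings, leaving out libraries and GC offsets. No pair of libraries in a group was a duplicate.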

Additional observations from a re-analysis of the deposited data

Results flagged for a closer look

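The test of the difference between the organs passed for 3 ribosome biogenesis genes. Of the 44 nucleolar factors 1 was called higher, and of 119 other ribosome biogenesis genes 1 was called higher and 1 lower. Among all tested genes 3.29% were called higher and 0.895% lower, so these calls were not above the background share. Refits without a single library are given for Wdr12 only, and not for Urb2 or Mdn1. For Wdr12 the LN3 difference in the spleen exceeded that in the thymus by 1.43 on the log2 scale (adjusted p = 0.0307, SE 0.34). That call was kept in 3 of 12 refits without a single library, and 0 of the 44 genes were called higher with the replicate block, with library totals or without the filter on low counts. For Urb2, a 60S assembly factor, it did so by 1.20 (adjusted p = 0.0388): Urb2 rose by 0.98 in the spleen (adjusted p = 0.00425) and had −0.22 in the thymus (adjusted p = 0.566). For Mdn1 the organ difference was −2.05 (adjusted p = 0.0205), with 1.32 in the thymus and −0.73 in the spleen. By construction the organ difference is the value of LN3 spleen against LN3 thymus minus that of WT CD8 cells against WT thymocytes. These 2 parts are therefore not observations separate from the calls. WT CD8 cells against WT thymocytes gave −1.30 for Wdr12, −1.13 for Urb2 and 1.51 for Mdn1 (adjusted p = 0.00312, 0.00329 and 0.0064). LN3 spleen against LN3 thymus gave 0.13, 0.07 and −0.54 (adjusted p = 0.926, 0.955 and 0.722).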

How the results depend on the processing

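All 44 genes were above 0 in the spleen and 43 in the thymus, and over 24 alternatives the sign turned for 2 genes in the spleen and 1 in the thymus, none of them called in that comparison. Heatr1 in the spleen was −0.26 with library totals, −0.19 with upper-quartile factors, −0.13 with GC offsets and −0.12 with GC offsets and the replicate block. Noc3l in the spleen was −0.36, −0.29, −0.17 and −0.18 in the same order, and ranged from −0.15 to 0.23 over refits without a single library. Rrn3 in the thymus ranged from −0.063 to 0.53 over those refits, the lowest without WT thymocytes 2.

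Over refits without a single library the number of genes called higher ranged from 6 to 28 in LN3 thymus, from 11 to 35 in LN3 spleen against WT CD8 cells, from 14 to 40 in LN3 spleen against WT thymocytes, from 0 to 6 in WT CD8 cells against WT thymocytes (lower: 1 to 2) and from 0 to 1 in the test of the organ difference. Over all tested genes the first 3 of these ranges were 562 to 1651, 2416 to 4748 and 1016 to 3184. LN3 spleen against WT thymocytes gave 14 without WT thymocytes 1, 16 without LN3 spleen 3, 19 without WT thymocytes 2 and 21 without LN3 spleen 1, and 18 in a fit of these groups alone. Library totals gave 15 in LN3 spleen against WT CD8 cells. GC offsets gave 28 higher and 1 lower in LN3 thymus (24 and 1 with the replicate block), and 1 lower, Wdr12, in LN3 spleen against WT thymocytes (1 with the block). WT CD8 cells against WT thymocytes had 1 higher with RLE factors, without the filter and in a fit of these groups alone, 5 with library totals, 6 without the 3 GC-steep libraries, 8 with GC offsets and the block, 10 with upper-quartile factors and 11 with GC offsets. It had 1 lower in the fit of these groups alone, without the GC-steep libraries and with GC offsets and the block. The organ difference gave 0 higher with library totals and without the filter, and 2 with DESeq2. The cause of these changes was not tested.

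The titles number the leukaemias alike in both organs, but do not state that equal numbers mark a shared mouse. Same-numbered LN3 thymus and LN3 spleen libraries did not deviate together (correlations of −0.111, −0.603 and −0.0967). These correlations cannot show whether the animals were shared: the highest, 0.539, was between LN3 thymus 2 and LN3 spleen 1, the LN3 libraries with the steepest GC slopes. The replicate block gave 13 genes higher in the thymus and 23 in the spleen, 1 higher and 1 lower between the WT groups, and 0 in the organ difference.

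Scaling moved the split of all calls: in the spleen 58% of called genes were higher, against 40.1% with library totals, 41.7% with upper-quartile factors and 41% with GC offsets, and in the thymus 53.8%, 38.3%, 41.2% and 48.2%. In LN3 spleen against WT thymocytes these shares were 57.1%, 33.5%, 38.9% and 40.1%. For the organ difference they were 78.6%, 70.1%, 73.7% and 60.7%. Without Npm1 and Ncl the genes took 0.468% of counts in LN3 thymus and 0.296% in WT thymocytes, and 0.525% in LN3 spleen and 0.342% in WT CD8 cells.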
